A study of Mus musculus with 3 samples.

Results

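Chemokines and their receptors were followed in RNA sequencing of mandibular condyles, the joint ends of the lower jaw, from 4-month-old mice of 3 genotypes. The members are the genes whose symbol is Ccl, Cxcl, Cx3cl, Ccr, Cxcr, Cx3cr or Xcr with a number, which gave 49 names among the 26970 genes of the table. Of these, 2 are not analysed here, and 47 remain, 30 ligands and 17 receptors. The rule used names only and no measured value. WT mice carried both Dspp alleles, Dspp+/- mice carried 1 knockout allele and Dspp-/- mice carried 2, in a global knockout on the C57BL/6 background. Each genotype was measured in 1 library, so every difference below compares libraries, has no replicate check and carries no p-value. For WT and Dspp+/- the condyles of 3 animals were pooled, and the number pooled for Dspp-/- is not given in the sources used here. Pooling removes the spread between animals from view. The Dspp transcript itself was not analysed here.

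Chemokines are small secreted proteins that direct cell migration through G protein-coupled receptors on the cells that follow them. They are classed by the spacing of the first cysteines in the mature protein, which lie side by side in CC chemokines, 1 residue apart in CXC chemokines and 3 residues apart in the CX3C chemokine. Many receptors accept several ligands and many ligands several receptors. In bone and its marrow they are known for holding blood progenitors in the marrow, for releasing neutrophils and monocytes into the blood and for bringing the myeloid precursors of osteoclasts to bone surfaces.

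The cysteine spacing can be read directly from 4 of the ligands whose levels are described below. The lines give the coding bases around the cysteine codons, in capitals, from the transcripts of GENCODE M21.
Ccl6: tcagacTGCTGCttctct
Ccl9: tcagatTGCTGCctgtcc
Cxcl14: tccaagTGTaagTGTtcccgg
Cx3cl1: acgaaaTGCgaaatcatgTGCgacaag
Ccl6 and Ccl9 held the adjacent pair of the CC class, Cxcl14 held 1 codon between its capitals and Cx3cl1 held 3.

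Values are FPKM, fragments scaled to exon length and to library depth, so that levels can be compared between genes. The fragments behind each value were recovered from the FPKM and the exon lengths, at depths of 20241580 fragments in WT, compared with 23613619 in Dspp+/- and 22253158 in Dspp-/-. A fold is a ratio of FPKM, and the interval printed after it is a 95% Clopper-Pearson interval that covers counting error only, not the variation between animals. A gene with no fragment in a library was set at a floor of 3 fragments there, which makes its fold a lower bound. In bulk tissue, fewer cells of a type and less RNA per cell cannot be told apart.

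The libraries also differed in composition. The summed FPKM of 13 neutrophil markers was 633 in WT against 2843 in Dspp+/- and 3772 in Dspp-/-, that of 7 osteoblast markers was 10638, 2865 and 5653, and that of 7 chondrocyte markers was 1657, 470 and 743, so markers of the labelled tissue were present in all 3. Mitochondrially encoded genes took 25.0% of the FPKM in WT, compared with 36.9% in Dspp+/- and 37.3% in Dspp-/-, and their part in the results was not tested. Xist, the RNA of the inactive X chromosome, had 2 fragments in WT, compared with 12084 in Dspp+/- and 10563 in Dspp-/-. The sex of the pooled animals is not given in the sources used here, and sex and genotype cannot be told apart.

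Most chemokine and receptor genes were higher in both mutant libraries than in WT. The level summed over the 47 genes was 92.8 FPKM in WT against 152 in Dspp+/- and 149 in Dspp-/-. In Dspp+/-, 39 genes were higher and 7 lower than in WT, which is 83.0% higher against 52.4% of all 26970 genes. In Dspp-/-, 40 were higher and 6 lower, which is 85.1% higher against 47.8% of all genes. Both comparisons share the WT library, so they are not independent of each other. The ligands summed to 62.3, 90.0 and 81.7 FPKM in WT, Dspp+/- and Dspp-/-, and the receptors to 30.4, 62.1 and 67.1 FPKM. The summed receptor level was thus 2.04 times WT in Dspp+/- and 2.21 times in Dspp-/-, and the summed ligand level 1.44 and 1.31 times.

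Only 15 of the 47 genes reached a mean of 1 FPKM over the 3 libraries. Among them, Ccl5, Ccl6, Ccr2 and Cxcr4 were at least 2-fold higher in Dspp+/- on the log2(FPKM + 1) scale and none was 2-fold lower, where 4.88% of the 13026 genes with that mean were higher and 2.86% lower. In Dspp-/-, Ccl21a, Ccl6, Ccr2 and Cxcr4 were at least 2-fold higher and none was lower, against 4.05% higher and 1.37% lower of all genes. No member differed 2-fold between the mutant libraries, where 0.852% of genes were higher and 0.798% lower in Dspp-/-. Over the 15 genes, the median log2 ratio was 0.46 in Dspp+/- and 0.57 in Dspp-/- against WT, beside 0.058 and 0.007 over all 13026 genes. A gene can reach the mean through the library in which it is high, so these counts and medians describe the 15 genes and not the family. Over all 47 genes with no filter, the median was 0.19 in Dspp+/- and 0.33 in Dspp-/-.

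The other 32 genes lay under 1 FPKM, and they were counted by a further rule chosen after seeing the data, at least 30 fragments over the 3 libraries and a 2-fold ratio of fragments per depth, which 33 members could meet. By that rule 17 members were higher and 1 was lower in Dspp+/-, against 11.0% and 6.42% of 16207 genes. In Dspp-/- 17 were again higher and 1 lower, against 9.50% and 4.83% of genes. A member can reach 30 fragments through the library in which it is high, as Cxcl5, Cxcr1, Cxcl10 and Ccr9 did. Counts under this filter therefore describe the 33 members and not the family. Between the mutant libraries, Cxcl10 and Cxcr6 were higher and Cxcr3 lower in Dspp-/-, where 3.36% and 3.84% of genes were called. The counting interval lay above 1 for 18 of the 33 members and below 1 for 3 in Dspp+/-, beside 36.9% and 26.1% of the 16207 genes. In Dspp-/- it lay above 1 for 20 and below 1 for 3, beside 31.9% and 29.9%. For Dspp-/- against Dspp+/- it lay above 1 for 7 and below 1 for 8, beside 23.3% and 31.0%. An interval away from 1 was therefore common among all genes at this depth.

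**Figure D1:**
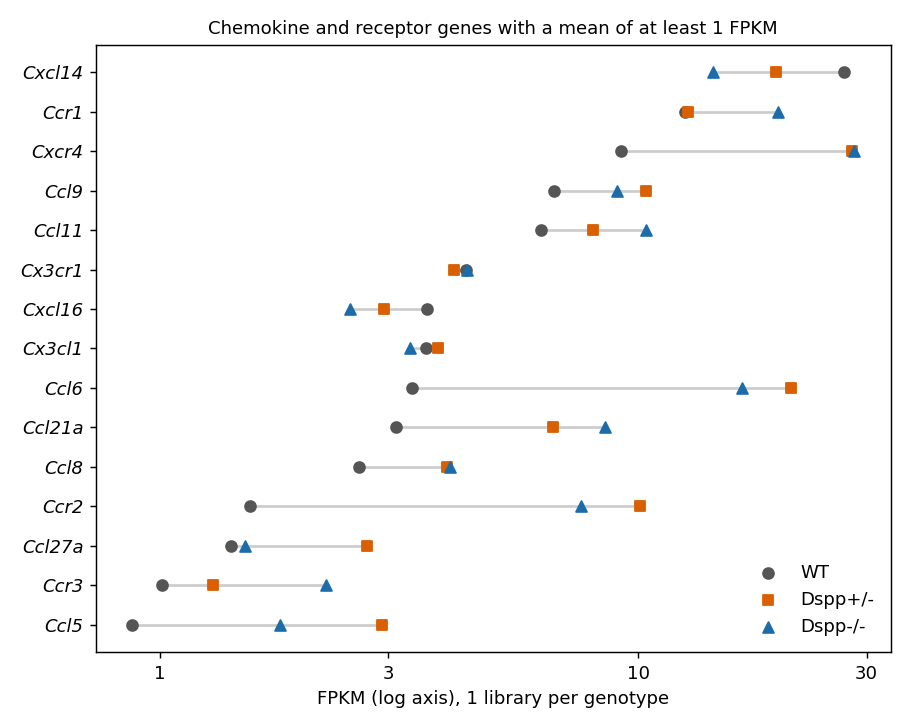
Level in FPKM, on a log axis, of the 15 chemokine and receptor genes whose mean reached 1 FPKM, with 1 point for each of the WT, Dspp+/- and Dspp-/- libraries and a grey line over their range. Ccl6, Ccr2 and Cxcr4 have both mutant points well to the right of WT, Cxcl14 and Cxcl16 have both to the left, and Cx3cr1 stays between 4.11 and 4.39 FPKM.

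The receptors grouped as myeloid held the largest share of the receptor level. These 8 genes summed to 29.1 FPKM in WT, compared with 57.6 in Dspp+/- and 63.5 in Dspp-/-. The group includes Cxcr4, described below, which supplied 9.21, 28.0 and 28.3 FPKM of these sums. Ccr2, the receptor through which inflammatory monocytes leave the marrow, was at 1.54 FPKM in WT against 10.1 in Dspp+/- and 7.59 in Dspp-/-, from 211, 1605 and 1142 fragments. Both mutant libraries were high. The Dspp+/- fold was 6.52 (5.65 to 7.56) and the Dspp-/- fold 4.92 (4.25 to 5.73), and Dspp-/- lay below Dspp+/- by a fold of 0.755 (0.699 to 0.815).

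Monocyte markers had no common direction beside Ccr2, with 4 higher and 3 lower than WT in each mutant library. The 7 markers summed to 100 FPKM in WT, compared with 123 in Dspp+/- and 108 in Dspp-/-. Ly6c2, a surface antigen of inflammatory monocytes, was at 1.97, 31.9 and 22.7 FPKM, whereas Csf1r, the receptor for the growth factor CSF-1 on monocytes, macrophages and osteoclasts, was at 43.2, 25.1 and 33.2 FPKM. Ms4a4c, Irf8 and F13a1 were also higher in both mutant libraries. Klf4 and Cd14 were lower in both, and the intervals of Cd14 held 1. The part of cell composition in the Ccr2 difference was not tested.

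Cxcr4, which retains progenitors and immature leukocytes in the marrow, was at 9.21 FPKM in WT against 28.0 in Dspp+/- and 28.3 in Dspp-/-, from 337, 1195 and 1138 fragments. The folds were 3.04 (2.69 to 3.44) and 3.07 (2.72 to 3.48), and the mutant libraries did not differ beyond counting error, with a ratio of 1.01 (0.931 to 1.10). It was the highest of the 47 genes in both mutant libraries, where it made up 18.4% and 19.0% of their summed FPKM against 9.93% in WT. The RefSeq promoter of Cxcr4, 250 bases before to 50 after the start on GRCm38.p6 at chr1:128592250-128592549 on the minus strand, is shown because this gene had the highest level, and its capitals mark TATAAA, which lies there on both strands in overlap.
Cxcr4: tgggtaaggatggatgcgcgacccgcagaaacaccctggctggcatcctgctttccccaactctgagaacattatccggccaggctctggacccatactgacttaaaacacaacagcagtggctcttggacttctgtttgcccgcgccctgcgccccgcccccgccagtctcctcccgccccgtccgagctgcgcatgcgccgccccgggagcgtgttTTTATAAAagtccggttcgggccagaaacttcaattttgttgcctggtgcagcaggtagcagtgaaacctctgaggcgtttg

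Ccr1, shared by neutrophils, monocytes and osteoclast precursors and a receptor for Ccl5, Ccl6 and Ccl9, was at 12.5 FPKM in WT, compared with 12.7 in Dspp+/- and 19.6 in Dspp-/-. Only Dspp-/- was high. The fold in Dspp+/- was 1.01 (0.917 to 1.12), which turned to slightly below 1 under median-ratio scaling, and in Dspp-/- it was 1.57 (1.43 to 1.73). Ccr3, the eotaxin receptor of eosinophils, had the same order at 1.01, 1.29 and 2.22 FPKM, with folds of 1.28 (0.930 to 1.77) and 2.20 (1.64 to 2.97).

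Cxcr1, a neutrophil receptor, had 0 fragments in WT against 21 in Dspp+/- and 19 in Dspp-/-, which is at least 6.0-fold and at least 5.76-fold higher against 3 fragments. Xcr1, which marks cross-presenting dendritic cells, had 11, 23 and 19 fragments, and both of its intervals held 1.

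Cx3cr1, a receptor of patrolling monocytes and resident macrophages, was at 4.36 FPKM in WT, compared with 4.11 in Dspp+/- and 4.39 in Dspp-/-. The 3 libraries overlapped within counting error, with folds of 0.941 (0.820 to 1.08) and 1.01 (0.876 to 1.15). The fold of Cxcr4 exceeded that of Cx3cr1 by 3.23 times (2.69 to 3.87) in Dspp+/- and by 3.05 times (2.55 to 3.66) in Dspp-/-. The 9 macrophage markers summed to 160, 148 and 140 FPKM.

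The 9 receptors best known from lymphocytes were all rare, and their summed level was 1.36 FPKM in WT against 4.46 in Dspp+/- and 3.61 in Dspp-/-. Cxcr5, which guides B cells to follicles, had 8 fragments in WT, compared with 95 in Dspp+/- and 50 in Dspp-/-, with folds of 10.2 (4.96 to 24.3) and 5.69 (2.67 to 13.9). Ccr7, the lymph node homing receptor of T cells and dendritic cells, had 10, 55 and 39 fragments, with folds of 4.71 (2.38 to 10.4) and 3.55 (1.74 to 7.97). Both genes were lowest in WT.

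Cxcr3, a receptor of activated T cells and NK cells, had 8, 35 and 16 fragments in WT, Dspp+/- and Dspp-/-. Its fold was 3.75 (1.71 to 9.36) in Dspp+/-, while the interval of 0.735 to 4.91 in Dspp-/- held 1. Ccr9, a receptor of thymocytes, gut homing cells and some dendritic cells, had 3, 36 and 40 fragments, a ratio of 10.3 (3.25 to 52.2) and 12.1 (3.86 to 61.3), and 21.5% of its exon bases overlap other genes, so those counts are uncertain. Cxcr6, a receptor of T and NK cells, was high in Dspp-/- alone, at 9, 15 and 30 fragments, with a fold of 3.03 (1.40 to 7.26) there. Ccr4, Ccr6, Ccr8 and Ccr10, which serve T and B cell subsets, had at most 20 fragments in a library, and no interval that could be computed lay on one side of 1. Summed markers of B cells were 20.2, 69.1 and 51.5 FPKM and those of T and NK cells 3.23, 19.4 and 10.4. Nkg7 alone, at 0.432, 13.1 and 5.46 FPKM, carried most of the latter in the mutant libraries but not in WT. The sums without it were 2.80, 6.27 and 4.95. The part of these cells in the lymphoid receptors was not tested.

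**Figure D2:**
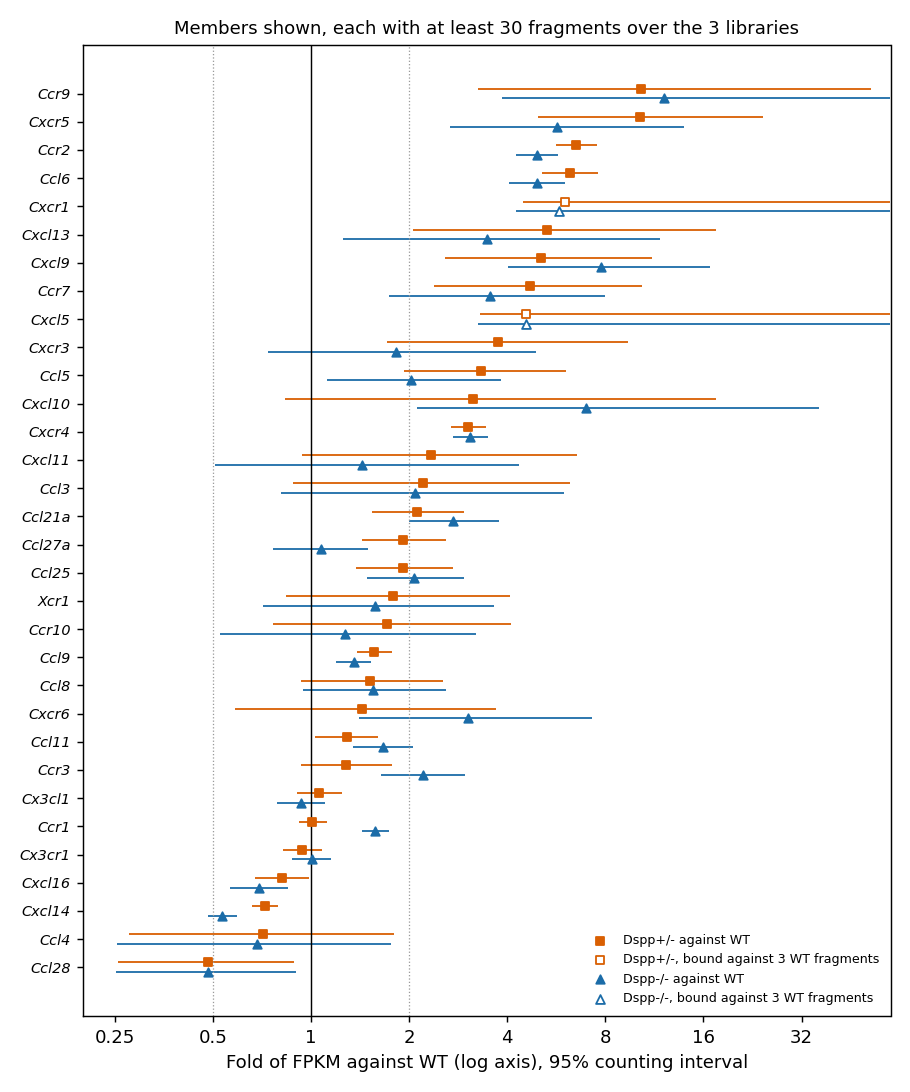
Fold of FPKM against WT on a log axis for 32 of the 33 members with at least 30 fragments over the 3 libraries, with orange squares for Dspp+/-, blue triangles for Dspp-/-, lines for the 95% counting interval and dotted lines at 0.5 and 2. Open symbols are lower bounds where WT had 0 fragments, and lines that meet the right edge run beyond it. Ccl6, Ccr2 and Cxcr4 have high folds with narrow intervals, and Cxcr5 and Ccr9 have higher folds from few fragments. Cxcl14, Cxcl16 and Ccl28 lie below 1 in both with their intervals, and Ccl4 lies below 1 with intervals that hold 1.

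Inflammatory CC ligands summed over 11 genes to 22.1 FPKM in WT against 49.4 in Dspp+/- and 45.6 in Dspp-/-. Most of that difference was Ccl6, a chemokine of myeloid cells found in rodents, which was at 3.36 FPKM in WT, compared with 20.9 in Dspp+/- and 16.5 in Dspp-/-, from 122, 884 and 661 fragments. Both mutant libraries were high, with folds of 6.21 (5.13 to 7.57) and 4.93 (4.06 to 6.03), and Dspp-/- was below Dspp+/- by a fold of 0.793 (0.716 to 0.879). Among the members, Ccl6 supplied 3.62% of the summed FPKM in WT against 13.7% in Dspp+/- and 11.1% in Dspp-/-.

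Ccl9, the next gene on chromosome 11 and like Ccl6 a ligand of Ccr1, was at 6.68 FPKM in WT, compared with 10.4 in Dspp+/- and 9.02 in Dspp-/-, from 412, 751 and 611 fragments. It was higher than Ccl6 in WT and lower than Ccl6 in both mutant libraries. Its folds of 1.56 (1.38 to 1.77) and 1.35 (1.19 to 1.53) were smaller, and the fold of Ccl6 exceeded that of Ccl9 by 3.98 times (3.18 to 4.97) in Dspp+/- and 3.65 times (2.90 to 4.60) in Dspp-/-.

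The promoters of these neighbours are shown because their genes differed in fold although part of the sequence is alike. Both are RefSeq promoters on the minus strand of GRCm38.p6, Ccl6 at chr11:83593038-83593337 and Ccl9 at chr11:83578587-83578886, again from 250 bases before to 50 after the start. Capitals mark the stretch that aligned between them.
Ccl6: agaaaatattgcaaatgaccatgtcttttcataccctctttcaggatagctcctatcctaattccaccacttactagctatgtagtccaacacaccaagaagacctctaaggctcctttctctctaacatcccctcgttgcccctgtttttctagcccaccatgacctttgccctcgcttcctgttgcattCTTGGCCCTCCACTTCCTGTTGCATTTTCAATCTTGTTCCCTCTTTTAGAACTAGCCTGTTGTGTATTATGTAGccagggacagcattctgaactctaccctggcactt
Ccl9: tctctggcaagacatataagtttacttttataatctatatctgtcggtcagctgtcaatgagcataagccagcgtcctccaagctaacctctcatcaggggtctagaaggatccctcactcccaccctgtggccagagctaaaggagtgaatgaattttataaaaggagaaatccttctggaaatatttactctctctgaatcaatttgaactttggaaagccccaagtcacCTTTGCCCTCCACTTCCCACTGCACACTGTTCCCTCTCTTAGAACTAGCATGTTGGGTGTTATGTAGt
The local alignment ran over 74 columns, of which 59 were identical (79.7%). The letters TATAAA were in the Ccl9 window and not in the Ccl6 window on either strand. The same was true of the NF-kB decamer, another motif searched below. Whether either match is a working site was not tested.

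Over all members, 34 matched RefSeq promoters, 41 windows in all, and 4 motifs were searched on both strands. TATAAA was in 10 of the 41 windows (24.4%) and in 13.6% of all 32851 promoters of that length. GAGGAA, the core of sites for the myeloid factor PU.1, was in 16 (39.0%) and in 28.3% of all. TTGCNNAA, a C/EBP core, was in 6 (14.6%) and in 10.8%, and the NF-kB decamer was in 8 (19.5%) and in 8.46%. The PU.1 core and the decamer overlapped in the Ccr3 window. None of the 4 was in the windows of Ccl6, Ccl19, Ccl21b, Ccl22, Ccl28, Ccr2, Ccr4, Ccr8, Ccr9, Cx3cr1, Cxcl14, Cxcr1 or Cxcr6. A match is only a description of letters, and windows of 1 gene can overlap.

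Ccl5, a ligand of Ccr1 and Ccr3 made by T and NK cells, was at 0.875 FPKM in WT against 2.91 in Dspp+/- and 1.78 in Dspp-/-, from 17, 66 and 38 fragments. Both mutant libraries were higher, by 3.33-fold (1.93 to 6.05) and 2.03-fold (1.12 to 3.84). Ccl11, eotaxin, which attracts eosinophils through Ccr3, was at 6.26 FPKM in WT, higher at 8.06 in Dspp+/- and higher again at 10.4 in Dspp-/-, with folds of 1.29 (1.03 to 1.61) and 1.66 (1.34 to 2.06). Ccl8, a monocyte chemoattractant, was at 2.61, 3.98 and 4.05 FPKM, and both intervals held 1.

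The classical ligands of Ccr2 were rare beside their receptor. Ccl2, the main monocyte chemoattractant, had 4 fragments in WT, compared with 9 in Dspp+/- and 12 in Dspp-/-, Ccl7 had 4, 7 and 3, and Ccl12 had 4, 7 and 17. Of these only Ccl12 in Dspp-/- had an interval above 1, at a fold of 3.87 (1.26 to 15.8). Ccl3 and Ccl4, macrophage inflammatory proteins, had at most 18 fragments in a library, Ccl24, another eotaxin, had at most 9, and all of their intervals against WT held 1. Ccl4 lay below WT in both mutant libraries, at folds of 0.714 and 0.682.

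Homeostatic CC ligands, which place lymphocytes in tissues without inflammation, summed over 9 genes to 5.61, 11.4 and 12.8 FPKM. Ccl21a, a ligand of Ccr7 from lymphatic and lymph node stroma, was at 3.12 FPKM in WT against 6.62 in Dspp+/- and 8.52 in Dspp-/-, with folds of 2.12 (1.54 to 2.95) and 2.73 (2.0 to 3.77). However, 50.3% of the 100-base sequences of its exons are shared with other genes, among them Ccl21b, so the split of reads between copies is uncertain. Ccl27a, an epithelial ligand of Ccr10, was high in Dspp+/- alone, at 1.41, 2.71 and 1.51 FPKM, and 26.5% of its sequences are shared with copies. Ccl21b and Ccl27b were listed at 0 to 1.08 FPKM and their fragments could not be recovered.

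Ccl25, the thymic and gut ligand of Ccr9, had 51, 114 and 116 fragments, with folds of 1.92 (1.37 to 2.72) and 2.07 (1.48 to 2.94). Ccl28, a mucosal ligand of Ccr10, went the other way at 32, 18 and 17 fragments, with folds of 0.482 (0.255 to 0.885) and 0.483 (0.252 to 0.897). It was the member called lower by the 30-fragment rule in both mutant libraries. Ccl19, the other ligand of Ccr7, had 1, 6 and 12 fragments, a ratio of 10.9 (1.61 to 467) in Dspp-/-, and 39.3% of its sequences are shared with pseudogenes and copies. Ccl17, which attracts Ccr4-bearing T cells, had 0 fragments in WT, compared with 11 in Dspp+/- and 1 in Dspp-/-, at least 3.14-fold higher in Dspp+/-, and Ccl22 from the same group had at most 2 fragments.

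CXC ligands that attract neutrophils were close to 0 in WT. Cxcl5 had 0 fragments in WT against 16 in Dspp+/- and 15 in Dspp-/-, at least 4.57-fold and at least 4.55-fold higher. Cxcl1 had 2, 12 and 4, a ratio of 5.14 (1.14 to 47.3) in Dspp+/- and 1.82 (0.261 to 20.1) in Dspp-/-, and Cxcl2 had 0, 2 and 0, which is at or under the floor everywhere. Their summed level stayed under 0.7 FPKM in every library, at 12.8 and 8.68 times a WT sum of only 0.0527 FPKM. The summed neutrophil markers were 4.49 and 5.96 times WT.

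The interferon-induced CXC ligands of Cxcr3 lie together on chromosome 5. Cxcl9 had 10 fragments in WT, compared with 59 in Dspp+/- and 85 in Dspp-/-, with folds of 5.06 (2.57 to 11.1) and 7.73 (4.01 to 16.7). Cxcl10 had 3, 11 and 23, a ratio of 3.14 (0.830 to 17.5) and 6.97 (2.11 to 36.3). Both ligands were highest in Dspp-/-, whereas their receptor Cxcr3 was highest in Dspp+/-. Cxcl11 had 7, 19 and 11 fragments, its intervals held 1, and 41.7% of its exon bases overlap another gene. Cxcl13, the ligand of Cxcr5, had 5, 31 and 19 fragments, with folds of 5.31 (2.05 to 17.5) and 3.46 (1.25 to 11.8), and the mutant libraries did not differ beyond counting error, with a ratio of 0.650 (0.347 to 1.19).

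Cxcl14, a chemokine of epithelia and connective tissue, was the member with the highest level in WT. Like Cxcl16 and Ccl28, it was lower in both mutant libraries with intervals below 1. Cxcl14 was at 26.9 FPKM in WT against 19.4 in Dspp+/- and 14.3 in Dspp-/-, from 993, 838 and 583 fragments. Its folds were 0.723 (0.659 to 0.794) and 0.534 (0.481 to 0.592), and Dspp-/- was below Dspp+/- by 0.738 (0.663 to 0.822). Its share of the members' summed FPKM was 28.9% in WT but 12.8% in Dspp+/- and 9.64% in Dspp-/-. The summed osteoblast and chondrocyte markers were also lower in both mutant libraries, but with Dspp+/- below Dspp-/-, and their part in the Cxcl14 level was not tested.

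Cxcl16, a membrane-bound ligand of Cxcr6, was at 3.61, 2.94 and 2.50 FPKM, with folds of 0.815 (0.671 to 0.988) and 0.691 (0.562 to 0.849), and 18.3% of its exon bases overlap Zmynd15 on the other strand. The mutant libraries did not differ beyond counting error, with a ratio of 0.849 (0.689 to 1.04). Cx3cl1, fractalkine, was at 3.60, 3.81 and 3.34 FPKM, with folds of 1.06 (0.905 to 1.24) and 0.929 (0.786 to 1.10). Ligand and receptor of the CX3C pair thus both stayed within counting error of WT.

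Genes that lie side by side did not share 1 fold. Chromosome 9 carries Ccr9, Cxcr6, Xcr1, Ccr1, Ccr3 and Ccr2, in that order by the positions of the table, for which no mouse build is named. The fold of Ccr2 exceeded that of Ccr1 by 6.43 times (5.40 to 7.66) in Dspp+/- and 3.13 times (2.63 to 3.73) in Dspp-/-. It exceeded that of Ccr3, its neighbour, by 5.10 times (3.62 to 7.17) and 2.24 times (1.62 to 3.08). On chromosome 11, Ccl5, Ccl9, Ccl6, Ccl3 and Ccl4 lie within 139 kb, and Ccl6 stood above Ccl9 beside it.

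**Figure D3:**
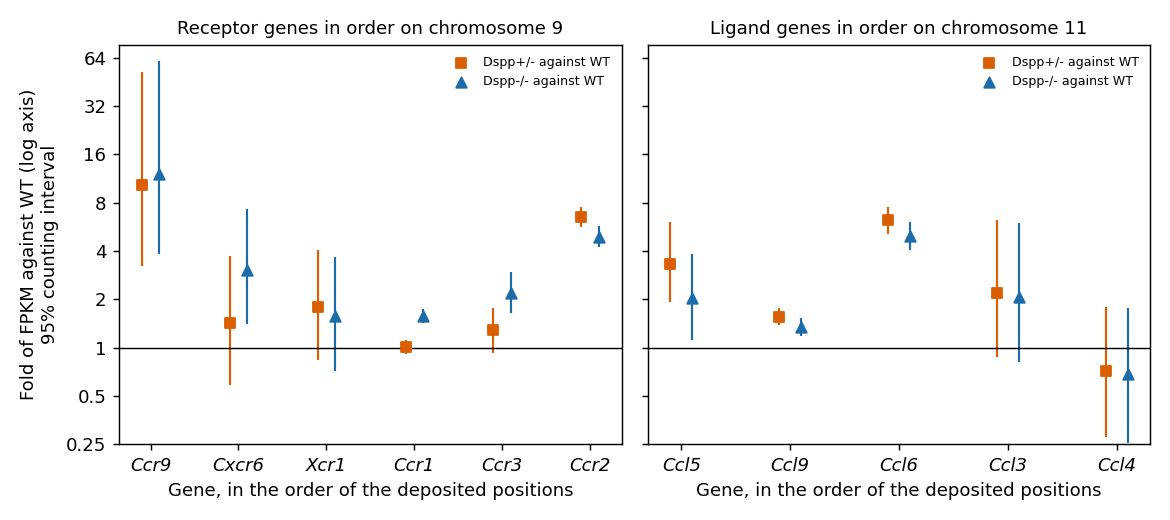
Fold of FPKM against WT on a log axis for neighbouring receptor genes of chromosome 9 (left) and ligand genes of chromosome 11 (right), in map order, with squares for Dspp+/-, triangles for Dspp-/- and lines for the 95% counting interval. Ccr2 stands above Ccr1 and Ccr3, and Ccl6 above Ccl9, with intervals that do not overlap. The intervals of Ccl3, on the other side of Ccl6, overlap those of Ccl6, as does that of Ccl5 in Dspp+/-. Ccr9 rests on 3 WT fragments.

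Of 43 further genes of chemokine binding, signalling and leukocyte migration, 39 reached 1 FPKM. The list was chosen with earlier results of these data known, and a gene can reach 1 FPKM through the library in which it is high. Counts over it therefore describe the listed genes only. At least 2-fold higher in Dspp+/- were 14 and in Dspp-/- 15, and none was 2-fold lower in either, beside the 4.88% and 4.05% higher and 2.86% and 1.37% lower of all genes given above. The platelet chemokines, whose names fall outside the rule for members, were among them, with Ppbp at 10.4, 75.6 and 86.7 FPKM and Pf4 at 9.73, 28.5 and 31.6. Megakaryocyte markers summed to 3.92, 26.1 and 21.9 FPKM beside them, and their part was not tested. Receptors for other chemoattractants were also called. The formyl peptide receptors Fpr1 and Fpr2 were at 1.46, 6.40 and 10.7 FPKM and at 2.52, 12.4 and 22.8, C5ar1 for complement C5a at 2.19, 5.98 and 6.26, and Ltb4r1 for leukotriene B4 at 3.51, 12.8 and 12.6. All were lowest in WT, and the Fpr genes were highest in Dspp-/-. Of the leukocyte integrin chains, Itgal at 1.48, 7.20 and 6.08 FPKM was called in both mutant libraries, and Itgam at 1.41, 3.73 and 4.69 and Itgb2 at 16.1, 31.4 and 35.2 in Dspp-/-.

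Among intracellular parts of the pathway, Dock2, an activator of Rac in leukocytes, was at 1.13, 4.69 and 4.24 FPKM. Both mutant libraries were high, as they were for Pik3cg, the PI3 kinase downstream of chemokine receptors, at 1.33, 4.81 and 4.90. Also called in both were Vav1, another exchange factor, at 2.88, 8.21 and 7.16, and Was, an actin regulator, at 2.84, 9.16 and 8.76. So was Rgs18, a regulator of G protein signalling, at 1.53, 7.55 and 9.93. Mmp8, the neutrophil collagenase, is not an intracellular part but was on the list. It was called in both, with folds of 3.96 (3.59 to 4.37) and 6.73 (6.13 to 7.41). Rac2, the Rac form of blood cells, was at 17.5, 38.0 and 35.2 FPKM and was called in Dspp+/-. The G protein subunits were not called, and they differed in direction, with Gnai2 at 90.9, 82.5 and 86.5 FPKM, Gnb1 at 46.6, 39.1 and 42.5, and Gng2 at 3.22, 4.20 and 4.79. Ackr3, a scavenging receptor found on stromal and endothelial cells, was lower in both mutant libraries at 38.0, 24.2 and 25.7 FPKM, with folds of 0.637 (0.600 to 0.676) and 0.675 (0.636 to 0.717).

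**Figure D4:**
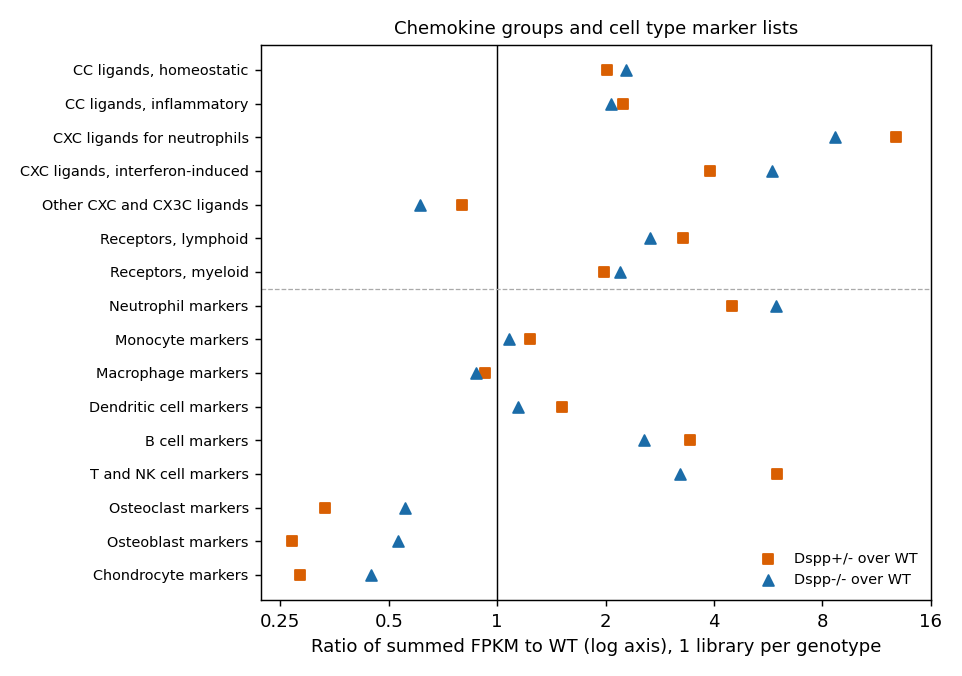
Ratio of summed FPKM to WT on a log axis for 7 groups of chemokine and receptor genes (above the dashed line) and 9 cell type marker lists (below), with squares for Dspp+/- and triangles for Dspp-/-, 1 library each. The group that holds Cxcl14, Cxcl16, Cx3cl1 and Cxcl13 is the one below WT, at 0.797 and 0.610, neutrophil, B cell and T and NK cell markers lie to the right, and bone and cartilage markers lie to the left. The ratio of the neutrophil CXC ligands rests on a WT sum of 0.0527 FPKM.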

How the data were processed

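RNA of condyles was sequenced as poly(A)-selected, paired-end libraries made with a kit that does not mark strand. The authors deposited 1 value per gene and library, with no unit named, read as FPKM because FPKM times exon length gave whole fragments. Exon lengths were those of GENCODE M21. Among genes under 100 fragments this held, within 0.06 fragment, for 98.6% in WT, 98.7% in Dspp+/- and 98.6% in Dspp-/-. Fragments were recovered for 98.7% of the 26641 genes with a length. That share includes genes with no fragment, for which the product is always whole, so it is a weaker check of the unit. Per the labels' processing notes, FastQC 0.11.5, HISAT2 2.1.0, StringTie 1.3.3b and DESeq 1.28.0 were used, and the build is given as hg38, a human build, although the genes are mouse. The labels mention triplicates, and 1 value per genotype is held, taken as 1 pooled library. Members and lists were chosen with earlier results of these data known. Ratios used a pseudocount of 1, a mean of at least 1 FPKM and a 2-fold threshold, in Python 3.11.15 with scipy 1.17.1. Members reaching 1 FPKM or 30 fragments in a library are named with values, and the list of further genes by a mean of 1 FPKM and a 2-fold difference. Rarer members, Gnai2, Gnb1, Gng2, Ackr3, and the sequences of Cxcr4 and Cx3cl1 were chosen after their values were seen. On simulated data, 200 of 200 planted changes were called, and 10 of 12804 unchanged genes. The planted changes were larger than 2-fold and lay in genes well above 1 FPKM, with counting error only. The simulation therefore gives no error rate for the calls made here or for rarer genes. Alternatives were other pseudocounts, filters, thresholds and scalings. A further member is counted in the totals and not reported here by name.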

Additional observations from a re-analysis of the deposited data

How the results depend on the processing

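Of 8 alternatives planned and 1 added after seeing the data, 2 pseudocounts and 3 scalings were applied to single genes, and none of these changed the sign of the 8 called ratios. A pseudocount of 5 left 2 members higher in Dspp-/-, beside 1.04% of genes. A 1.5-fold threshold gave 7 higher and 1 lower in Dspp-/- against WT, beside 8.84% and 8.21% of genes, and 1 higher in Dspp-/- against Dspp+/-, beside 3.39%. With no filter on low values, 1 member was higher in Dspp-/- against Dspp+/-, beside 0.638%. The 30-fragment rule gave 17 higher and 1 lower in Dspp+/-, 17 and 1 in Dspp-/-, and 2 and 1 between the mutant libraries. As stated above, a member can meet that rule through the library in which it is high. The median of 0.46 in Dspp+/- and 0.57 in Dspp-/- became 0.24 and 0.26 with a pseudocount of 5, 0.19 and 0.33 with no filter, 0.73 and 0.93 for members whose mean reached 5 FPKM, and 1.05 and 1.02 under the 30-fragment rule. The log2 ratio fell under 2-fold in an alternative for Ccl5 in Dspp+/- (0.43 to 1.63), Ccl21a in Dspp-/- (0.74 to 1.42) and Ccr2 in Dspp-/- (0.94 to 2.23). Scaling without mitochondrial genes raised the median of all genes from 0.058 to 0.155 in Dspp+/- and from 0.007 to 0.098 in Dspp-/-. Under 1 or more of the 3 scalings the direction turned for Ccr1, Cx3cr1 or Cx3cl1 against WT and for Cxcl5, Ccl28 or Cxcr4 between the mutant libraries. No paired analysis was possible because each genotype has 1 library. Depth limits the 32 members under 1 FPKM, which had at most 56 fragments in WT.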
